A study of Mus musculus with 6 samples.

Results

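Immune checkpoints are surface pairs of ligand and receptor that brake or license T cells and natural killer (NK) cells. The set described here holds 9 mouse genes, taken by symbol from the 29492 genes listed over all libraries, and each of the 9 was listed in each of the 6 libraries. The 4 ligands are Cd274, which encodes PD-L1, Pdcd1lg2, which encodes PD-L2, and Cd80 and Cd86, the B7 ligands. The 5 receptors are Pdcd1, which encodes PD-1, Ctla4, Lag3, Tigit and Havcr2, which encodes TIM-3.

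Lungs of male C57BL/6J mice aged 12 weeks were taken 3 days after treatment, digested with enzymes, cleared of dead cells and read as single cells on the BD Rhapsody microwell system. In the SLC+LPS group, the subcoeruleus nucleus of the brain stem (SLC in the labels) had been activated 7 times through Gq, a G protein that raises neuronal firing, and the mice had received lipopolysaccharide (LPS), a bacterial wall component, at 1 mg/kg. The LPS group had received LPS at 1 mg/kg alone, and the control group phosphate-buffered saline (PBS). Each group had 2 libraries, which the series' design text calls biological replicates. The promoter and vector behind the Gq activation, and whether the LPS and control mice carried them too, are not given in the sources used here.

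PD-L1 and PD-L2 both bind PD-1, which dampens signalling from the T cell receptor. CD80 and CD86 on antigen-presenting cells bind CD28, which promotes T cell activation, and CTLA-4, which competes for them and is carried at high levels by regulatory T cells. TIGIT, found on T and NK cells, binds the poliovirus receptor family, LAG-3 binds MHC class II among other ligands, and TIM-3 binds galectin-9 and is also carried by dendritic cells and macrophages. In mouse lung, PD-L1 is known from myeloid, endothelial and epithelial cells and is induced by interferons.

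The members were counted as unique molecular identifiers (UMIs), 1 per captured RNA molecule. Over all 6 libraries, 73816 cells were kept, with a median of 1120 to 2550 UMIs per cell, and 61.1% to 85.4% of the cells of a library met a marker gate for a lung cell class. Levels are given as CPM, the gene's UMIs per 1000000 UMIs of the class, and shares as the percentage of cells with at least 1 UMI. The second LPS library stood apart, with the deepest cells (median 2550 UMIs against 1525 in the first LPS library) and the smallest estimated share of free RNA (4.78%, against 13.3% to 28.9% in the other 5 libraries). Replicates differed far beyond counting noise, with a chi-square per degree of freedom of 147 between the SLC+LPS libraries, 210.2 between the LPS libraries and 29.9 between the control libraries. Neutrophils made up 45.8% and 42.2% of the cells in SLC+LPS lungs, 35.0% and 30.7% in LPS lungs and 17.3% and 14.1% in control lungs. At most 6 cell barcodes were shared by any pair of libraries.

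The stretches just upstream of 4 members are shown because these are the members with a called difference, in a cell class or over all cells, that the RefSeq promoter table holds. They are the 250 bases before the annotated start, 5′ to 3′ on the gene's strand, in RefSeq's GRCm38.p6 build, an older build than that of the counts.
Cd274, chr19:29367188-29367437, plus strand: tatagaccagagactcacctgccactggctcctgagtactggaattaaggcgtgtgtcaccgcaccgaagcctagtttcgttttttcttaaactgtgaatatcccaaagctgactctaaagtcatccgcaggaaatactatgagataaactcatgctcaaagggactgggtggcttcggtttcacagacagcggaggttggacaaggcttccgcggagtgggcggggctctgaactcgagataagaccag
Pdcd1lg2, chr19:29410669-29410918, plus strand: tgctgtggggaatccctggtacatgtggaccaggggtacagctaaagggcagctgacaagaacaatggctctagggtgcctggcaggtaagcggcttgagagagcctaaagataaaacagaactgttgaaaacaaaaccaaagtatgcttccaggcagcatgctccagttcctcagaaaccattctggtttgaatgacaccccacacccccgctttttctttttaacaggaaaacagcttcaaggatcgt
Cd80, chr16:38458683-38458932, plus strand: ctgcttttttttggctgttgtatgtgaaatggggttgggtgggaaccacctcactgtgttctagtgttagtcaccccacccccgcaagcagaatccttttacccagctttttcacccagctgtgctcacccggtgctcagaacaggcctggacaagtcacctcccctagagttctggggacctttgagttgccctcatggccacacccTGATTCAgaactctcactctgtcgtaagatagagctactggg
Havcr2, chr11:46454681-46454930, plus strand: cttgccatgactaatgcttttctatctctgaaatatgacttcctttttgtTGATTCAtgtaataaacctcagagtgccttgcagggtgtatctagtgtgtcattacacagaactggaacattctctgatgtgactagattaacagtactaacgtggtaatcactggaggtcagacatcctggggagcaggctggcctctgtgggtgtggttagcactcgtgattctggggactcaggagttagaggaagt
Capitals mark matches to TGANTCA, the letters of an AP-1 site, the only motif of the 4 searched that was found in these windows. The others were TTCNNNGAA (a STAT site), a fixed pattern for an interferon-stimulated response element and a narrow pattern for an NF-kappa B site. All 4 were searched on both strands. The NF-kappa B pattern required A after its leading GGG. Looser forms of the site, such as those with G in that place, were not searched, and the Pdcd1lg2 window holds such letters. Of all 32851 RefSeq promoters of this length, 6.75% held TGANTCA and 7.02% held TTCNNNGAA. The pattern for the interferon-stimulated response element was in 2.98% and the narrow NF-kappa B pattern in 0.980%. Cd274 and Pdcd1lg2 are neighbours on chromosome 19, with 43481 bases between their annotated starts. By symbol, 7 of the 9 members matched the table, the others being Cd86 and Lag3, and in Pdcd1, Ctla4 and Tigit none of the 4 motifs was found. A match or its absence in such a window describes the letters only.

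Levels were compared between groups in the 14 classes with at least 20 cells in every library. By mean level over these 14 classes, Cd80, Cd86 and Pdcd1lg2 were led by mature dendritic cells, Pdcd1 and Ctla4 by T cells, Tigit by NK cells and Havcr2 by conventional dendritic cells. The rare Lag3 had its highest mean there too, from too few UMIs for an order of classes to be read. Cd274 was led by neutrophils, at the highest mean CPM of the 9 members. In each class 1 edgeR quasi-likelihood model was fitted to the summed counts, with Benjamini-Hochberg adjustment over all genes of the class. A difference was called at an adjusted p under 0.05. The filter on low counts left 67 of the member and class pairs to test.

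**Figure D1:**
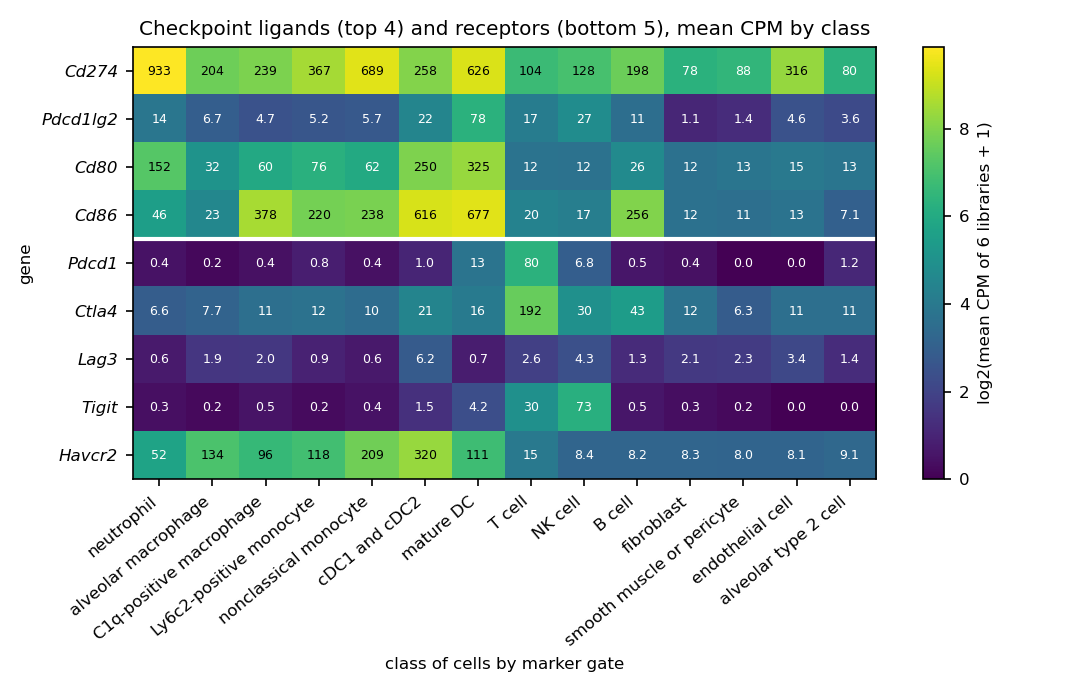
Heat map of the mean level of each of the 9 members (rows) in the gated lung cell classes (columns), as log2 of the mean CPM of the 6 libraries + 1, with that mean CPM printed in each cell. Cd274 is at its highest in neutrophils (mean 933 CPM), Cd86 in mature dendritic cells (677 CPM) and Tigit in NK cells (72.9 CPM).

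Between LPS and control lungs, 3 of the 67 pairs were called, and all 3 were higher in LPS lungs, where 1.42% of all gene and class pairs were called in either direction, 0.658% as higher and 0.759% as lower. These were Cd274 in C1q-positive macrophages, Cd274 in endothelial cells and Havcr2 in neutrophils. At an unadjusted p under 0.05, 27 of the 67 pairs passed, against 13.1% of all gene and class pairs. Between SLC+LPS and LPS lungs, edgeR called 0 of the 67 pairs and DESeq2 also 0, where edgeR called 0.00181% of all pairs, in each case as higher, and DESeq2 0.0326%. At an unadjusted p under 0.05, 10 of the 67 passed in edgeR, against 4.22% of all pairs. In DESeq2 7 passed, for which no share over all pairs is given. Between SLC+LPS and control lungs, 3 pairs were called, where 1.37% of all pairs were called in either direction, 0.637% as higher and 0.730% as lower. At an unadjusted p under 0.05, 23 of the 67 passed, against 14.3% of all pairs. Cd274 in C1q-positive macrophages and Havcr2 in neutrophils were higher, and Cd86 in C1q-positive macrophages was lower. These comparisons share libraries with each other, so they are not independent. Leaving out either control library ended every one of these calls, and the counts below are therefore read together with the values of each library.

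Cd274, the PD-L1 gene, was found in 26.6% and 19.8% of all control cells and in most LPS cells. Summed over all cells, Cd274 reached 339 and 464 CPM in SLC+LPS lungs, 711 and 745 CPM in LPS lungs and 211 and 147 CPM in control lungs. The 3 groups did not overlap, with SLC+LPS lungs between the others. Cd274 rose in LPS lungs against control by 2.41 ± 0.30 on the log2 scale (SE, adjusted p = 0.0183) and in SLC+LPS lungs against control by 1.57 ± 0.29 (adjusted p = 0.0287), where 8.57% and 13.3% of all genes were called. The difference between SLC+LPS and LPS lungs was -0.84 ± 0.29 and did not pass the test (adjusted p = 0.931, unadjusted p = 0.0235). A sum over all cells mixes classes, so a level per cell and the number of cells of a type cannot be told apart in it. The library scaling also mattered for its size: without the TMM scaling factors the median of all genes moved by -0.39 on the log2 scale in both comparisons with control. The value for SLC+LPS against control no longer passed with stricter cells (1.24, adjusted p = 0.0506) or without the first or second SLC+LPS library (1.92 and 1.24, adjusted p = 0.0519 and 0.127). Without either control library neither call over all cells passed (adjusted p of 0.126 to 0.191).

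Neutrophils held the highest mean level of Cd274 of the 14 classes, 933 ± 286 CPM (SD over 6 libraries), followed by nonclassical monocytes at 689 ± 433 CPM and mature dendritic cells at 626 ± 168 CPM. Each class overlapped its neighbour in that order over the libraries. In neutrophils Cd274 stood at 542 and 760.3 CPM in SLC+LPS lungs, 1119.8 and 1366 CPM in LPS lungs and 934 and 875 CPM in control lungs. The LPS libraries were the highest and the SLC+LPS libraries the lowest, with no overlap among the 3 groups. No difference passed the test: LPS against control was 0.80 ± 0.41 on the log2 scale (adjusted p = 0.339), SLC+LPS against LPS was -1.35 ± 0.42 (adjusted p = 0.882, unadjusted p = 0.00900), and SLC+LPS against control was -0.54 ± 0.41 (adjusted p = 0.542). Without TMM factors, which levels in CPM do not carry, the median of all genes in neutrophils moved by 0.36 in SLC+LPS against LPS.

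The share of neutrophils with a Cd274 UMI averaged 44.0% ± 8.9 in SLC+LPS lungs, 76.7% ± 12.9 in LPS lungs and 54.9% ± 3.8 in control lungs (SD, n = 2 each). After each cell was thinned to 500 UMIs, the shares were 24.2% in SLC+LPS lungs, 41.6% in LPS lungs and 33.0% in control lungs, the same order as before thinning. Free RNA was expected to give 43.6 and 187 CPM in SLC+LPS lungs, 137 and 55.6 CPM in LPS lungs and 57.3 and 53.1 CPM in control lungs, below the neutrophil level in each library. Neutrophils held 34.1% to 45.8% of the Cd274 UMIs of a library. They were compared with alveolar macrophages within each library: Cd274 was higher in neutrophils in 6 of 6 libraries, by 2.18 ± 0.38 (SD) on the log2(CPM + 1) scale. The two-sided exact permutation test gave p = 0.03125, the smallest that 6 libraries allow, and 0.0703 after adjustment over the 9 class pairs tested. The difference was therefore not called. A pair at this smallest p passes the adjustment only if most of the 9 pairs reach it too, so the missing call says nothing about the size of the difference. Interferon-gene-positive neutrophils, those with UMIs of at least 2 of 8 interferon response genes, exceeded the other neutrophils in 5 of 6 libraries by 0.37 ± 0.52 (exact permutation p = 0.156, adjusted p = 0.234).

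**Figure D2:**
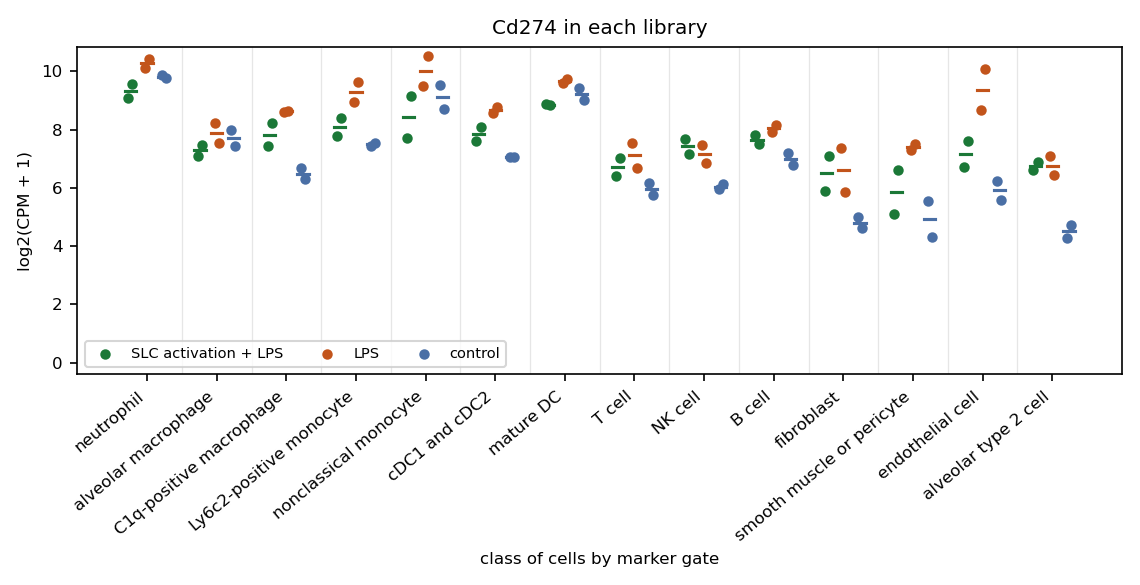
Level of Cd274 in each library (points) and the mean of the 2 libraries (bars) by cell class, on an axis of log2(CPM + 1), for SLC+LPS, LPS and control lungs. In neutrophils, C1q-positive macrophages and endothelial cells both LPS libraries lie above both SLC+LPS libraries.

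In C1q-positive macrophages, the class gated on complement C1q and other tissue macrophage markers, Cd274 stood at 171 and 297 CPM in SLC+LPS lungs, 392 and 397 CPM in LPS lungs and 101 and 77.7 CPM in control lungs. The LPS libraries were the highest, the control libraries the lowest, and no groups overlapped. Cd274 rose there in LPS lungs against control by 2.22 ± 0.33 on the log2 scale (adjusted p = 0.0151) and in SLC+LPS lungs against control by 1.48 ± 0.32 (adjusted p = 0.0380), in a class where 6.58% and 7.43% of all genes were called. The second value no longer passed once the expected free RNA was subtracted (1.61, adjusted p = 0.0681) or without the second SLC+LPS library (1.03, adjusted p = 0.133). The share of these macrophages with a UMI averaged 69.0% ± 8.9 in SLC+LPS lungs, 82.3% ± 1.7 in LPS lungs and 24.7% ± 5.0 in control lungs (SD, n = 2 each), with a median depth of 3238 to 9141 UMIs. Thinned to 500 UMIs, the shares were 11.0% in SLC+LPS lungs, 17.8% in LPS lungs and 4.17% in control lungs.

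Markers of other cells moved in this class as well. The 6 markers of Ly6c2-positive monocytes summed to 3318 and 5489 CPM there in SLC+LPS lungs, 3522 and 7045 CPM in LPS lungs and 1743 and 2064 CPM in control lungs. Of those 6 markers, 4 were higher in both LPS libraries than in both control libraries, and none was at 0. The 10 neutrophil markers summed to 627 and 1342 CPM in SLC+LPS lungs, 1132 and 810.5 CPM in LPS lungs and 437 and 405 CPM in control lungs, with 8 of 10 higher in both LPS libraries and none at 0. Cd163, a scavenger receptor of resident macrophages and 1 of the 10 markers of the gate, was at 88.2 and 59.9 CPM in SLC+LPS lungs, 47.8 and 132 CPM in LPS lungs and 1210.0 and 1299 CPM in control lungs. In such levels the make-up of the class and the RNA of its cells cannot be told apart. Their part in the Cd274 difference was not tested.

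In endothelial cells, which line the lung's vessels, Cd274 stood at 105 and 194 CPM in SLC+LPS lungs, 405 and 1071 CPM in LPS lungs and 74.1 and 47.3 CPM in control lungs. Both LPS libraries were above all others, and the LPS libraries lay further from each other than any other pair. Cd274 rose in LPS lungs against control by 3.79 ± 0.57 on the log2 scale (adjusted p = 0.0441), in a class where 0.148% of genes were called. Without the second LPS library the value was 2.73, from a group left with 1 library, whose own spread cannot be estimated. The call ended when free RNA was subtracted (5.82, adjusted p = 0.0991), without TMM factors (3.58, adjusted p = 0.0539) and with a wider gate (3.69, adjusted p = 0.128). It ended too without the first or the second SLC+LPS library (adjusted p = 0.0789 and 0.0759), which share the estimate of spread. Few cells stood behind the level in some libraries, with 209 and 47 endothelial cells in SLC+LPS lungs, 98 and 444 in LPS lungs and 817 and 397 in control lungs. The difference between SLC+LPS and LPS lungs was -2.58 ± 0.58 and did not pass the test (adjusted p = 0.779, unadjusted p = 0.00126), and 0.0444% of the genes of this class were called in SLC+LPS against control. In the second SLC+LPS library the expected free RNA, 187 CPM, was close to the measured 194 CPM. The 10 neutrophil markers in endothelial cells summed to 727 and 1399 CPM in SLC+LPS lungs, 1309 and 697 CPM in LPS lungs and 326 and 272 CPM in control lungs, with 7 of 10 higher in both LPS libraries than in both control libraries and none at 0. The 6 markers of Ly6c2-positive monocytes, which carry Cd274 themselves, summed to 883 and 868 CPM there in SLC+LPS lungs, 706 and 379 CPM in LPS lungs and 62.3 and 61.1 CPM in control lungs, with 2 of 6 higher in both LPS libraries than in both control libraries and none at 0. The part of both lists in the Cd274 difference was not tested.

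Elsewhere the fitted differences of Cd274 leaned the same way without passing the test. LPS against control was positive in 14 of 14 classes, with a median of 1.32 on the log2 scale, and SLC+LPS against LPS was negative in 13 of 14 classes, with a median of -0.76. At an unadjusted p under 0.05, 10 classes passed in LPS against control and 8 in SLC+LPS against LPS, beside 13.1% and 4.22% of all gene and class pairs, and the smallest adjusted p of the 14 in SLC+LPS against LPS was 0.487. Against control, SLC+LPS was positive in 10 of 14 classes. The classes share libraries and free RNA, so 14 classes are not 14 replicates. Ly6c2-positive monocytes, the inflammatory monocytes, had 221 and 337 CPM in SLC+LPS lungs, 494 and 793 CPM in LPS lungs and 171 and 187 CPM in control lungs. LPS against control there was 2.06 ± 0.44 (adjusted p = 0.0915) and SLC+LPS against LPS was -1.34 ± 0.42 (adjusted p = 0.987). Alveolar macrophages, the resident phagocytes of the air spaces, had 137 and 178 CPM in SLC+LPS lungs, 299 and 184 CPM in LPS lungs and 254 and 173 CPM in control lungs, and there LPS and control libraries overlapped. Fibroblasts had the lowest mean level of the 14 classes, 78.5 CPM, and in 4 of 6 libraries stood below the level expected from free RNA or within 5 CPM of it.

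**Figure D3:**
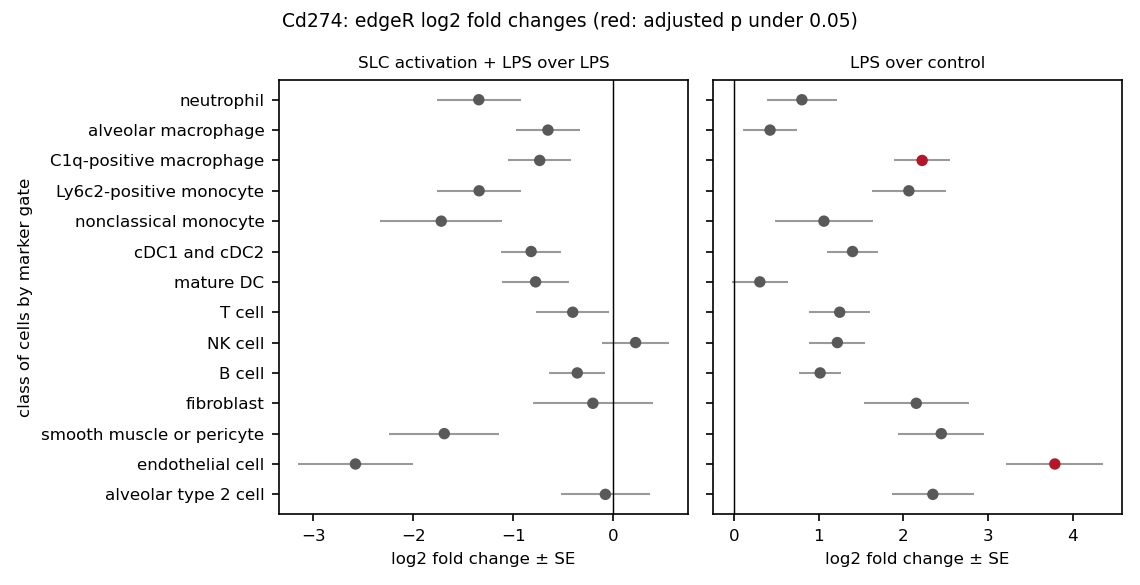
Fitted log2 fold change of Cd274 with its standard error in each class, SLC+LPS over LPS on the left and LPS over control on the right, red where the adjusted p is under 0.05. LPS over control is above 0 in 14 of 14 classes and called in C1q-positive macrophages and endothelial cells, and SLC+LPS over LPS is below 0 in 13 of 14 classes with no call.

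Pdcd1lg2, the gene of the second PD-1 ligand, had its highest mean CPM of the 14 classes in mature dendritic cells. These are the Ccr7-positive dendritic cells that travel to lymph nodes. They held 1.31% to 8.96% of the Pdcd1lg2 UMIs of a library, and neutrophils 13.2% to 32.2%. Mature dendritic cells had 97.8 and 159 CPM in SLC+LPS lungs, 83.7 and 87.0 CPM in LPS lungs and 13.3 and 28.8 CPM in control lungs. Both treated groups lay above the control libraries. The 6 markers of Ly6c2-positive monocytes in these cells summed to 480 and 1862 CPM in SLC+LPS lungs, 2342 and 580.0 CPM in LPS lungs and 173 and 133 CPM in control lungs, and the 10 neutrophil markers to 662 and 1544 CPM, 1274 and 1373 CPM and 485 and 404 CPM in the same libraries, with none at 0. In the second LPS library 14 of the 23 mature dendritic cells only just met the gate. The part of these in the Pdcd1lg2 level was not tested. The fitted difference was 2.54 ± 0.57 on the log2 scale in SLC+LPS against control (adjusted p = 0.0758) and 1.94 ± 0.59 in LPS against control (adjusted p = 0.202), so neither was called. These levels rest on 9 to 42 UMIs per treated library and 3 and 5 UMIs in the control libraries, from 23 to 106 cells. The share of mature dendritic cells with a UMI averaged 25.2% ± 1.8 in SLC+LPS lungs, 21.4% ± 5.7 in LPS lungs and 3.46% ± 0.54 in control lungs (SD, n = 2 each). Endothelial cells, set beside them as a class with little Pdcd1lg2, averaged 1.06% ± 1.5 in SLC+LPS lungs, 0.623% ± 0.562 in LPS lungs and 0.187% ± 0.092 in control lungs, at a median depth of 947 to 2023 UMIs against 2571 to 4403 in mature dendritic cells. Expected free RNA was 0.8 to 4.8 CPM. Against conventional dendritic cells (cDC1 and cDC2 summed), mature dendritic cells had more Pdcd1lg2 in 6 of 6 libraries, by 2.19 ± 1.06 (SD) on the log2(CPM + 1) scale (exact permutation p = 0.03125, adjusted p = 0.0703).

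Over all cells Pdcd1lg2 rose in both treated groups. It stood at 9.61 and 18.5 CPM in SLC+LPS lungs, 15.0 and 16.9 CPM in LPS lungs and 4.32 and 5.61 CPM in control lungs, with no overlap of a treated group with control. The change was 1.91 ± 0.42 on the log2 scale in SLC+LPS against control (adjusted p = 0.0361) and 2.07 ± 0.42 in LPS against control (adjusted p = 0.0369). The first no longer passed without the second SLC+LPS library (1.27, adjusted p = 0.151), and neither passed without either control library (adjusted p of 0.178 to 0.217). C1q-positive macrophages had 5.25 and 6.70 CPM in SLC+LPS lungs, 5.60 and 8.07 CPM in LPS lungs and 0.40 and 1.93 CPM in control lungs, which was not called (adjusted p = 0.0736 in SLC+LPS and 0.0658 in LPS against control). In NK cells, at 26.8 and 36.7 CPM in SLC+LPS lungs, 28.0 and 49.7 CPM in LPS lungs and 12.2 and 7.16 CPM in control lungs, the treated libraries again exceeded control without a call (adjusted p = 0.536 in SLC+LPS and 0.155 in LPS against control).

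Cd80, which encodes a B7 ligand of CD28 and CTLA-4, was led by mature dendritic cells (325 ± 107 CPM, SD over 6 libraries), followed by conventional dendritic cells (250 ± 150 CPM) and neutrophils (152 ± 27.5 CPM), each overlapping the next. In mature dendritic cells it stood at 172 and 238 CPM in SLC+LPS lungs, 312 and 435 CPM in LPS lungs and 356 and 439 CPM in control lungs. The SLC+LPS libraries were below all others, and LPS and control libraries overlapped. SLC+LPS against LPS was -0.81 ± 0.36 on the log2 scale and SLC+LPS against control -1.03 ± 0.36, and neither passed (adjusted p = 1.00 and 0.282). Conventional dendritic cells had 182 and 81.3 CPM in SLC+LPS lungs, 92.2 and 425 CPM in LPS lungs and 336 and 381 CPM in control lungs, where 1 LPS library was low and the other the highest of all. This class held 46 and 56 cells in SLC+LPS lungs, 82 and 23 in LPS lungs and 364 and 454 in control lungs. Of these, 15 and 35, 47 and 12, and 237 and 275 were cDC1 in the same libraries. Neutrophils had 186 and 154 CPM in SLC+LPS lungs, 142 and 108 CPM in LPS lungs and 176 and 148 CPM in control lungs. In CPM both SLC+LPS libraries lay above both LPS libraries, while the fitted differences among the groups were within 0.09 on the log2 scale. The fits carry TMM factors and CPM does not, and without these the median of all genes in neutrophils moved by 0.36 in SLC+LPS against LPS.

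Over all cells Cd80 rose in SLC+LPS lungs against control, while neither dendritic class did. It stood at 92.3 and 88.2 CPM in SLC+LPS lungs, 82.7 and 76.9 CPM in LPS lungs and 64.1 and 67.4 CPM in control lungs. The SLC+LPS libraries were the highest and the control libraries the lowest, with no overlap. The change was 0.85 ± 0.19 on the log2 scale in SLC+LPS against control (adjusted p = 0.0391), and 0.67 ± 0.19 in LPS against control did not pass (adjusted p = 0.0791). The call ended with a smaller value of 0.46 without TMM factors (adjusted p = 0.140) and 0.40 with stricter cells (adjusted p = 0.222), and with a value close to the first without either SLC+LPS library (adjusted p = 0.0829 and 0.156). Neutrophils held 50.4% and 43.5% of the Cd80 UMIs in SLC+LPS lungs, 37.1% and 31.8% in LPS lungs and 28.4% and 16.01% in control lungs, beside their shares of cells given above.

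Cd86, the other B7 ligand, fell in the C1q-positive macrophages of SLC+LPS lungs. In that class it stood at 138 and 188 CPM in SLC+LPS lungs, 186 and 332 CPM in LPS lungs and 692 and 732 CPM in control lungs. Both control libraries were more than double every treated library, and the SLC+LPS and LPS libraries overlapped. Cd86 fell in SLC+LPS lungs against control by 2.03 on the log2 scale (SE 0.34, adjusted p = 0.0202), while LPS against control, at -1.38 ± 0.33, missed the threshold (adjusted p = 0.0511). SLC+LPS against control passed under each of the 9 other settings that kept all libraries, with an adjusted p of 5.0e-09 to 0.0407. It did not pass without either SLC+LPS library (adjusted p = 0.0827 and 0.0638). In the same macrophages, Cd163 and the monocyte markers moved as given above, and the 7 markers of cDC2, a class that carries Cd86, summed to 282 and 317 CPM in SLC+LPS lungs, 263 and 403 CPM in LPS lungs and 878 and 997 CPM in control lungs, with none at 0. Their part in the Cd86 difference was not tested.

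The share of C1q-positive macrophages with a Cd86 UMI averaged 58.2% ± 1.1 in SLC+LPS lungs, 69.5% ± 12.5 in LPS lungs and 83.1% ± 3.7 in control lungs (SD, n = 2 each), although the control cells were the shallowest. Thinned to 500 UMIs, the shares were 8.60% in SLC+LPS lungs, 12.8% in LPS lungs and 29.6% in control lungs. Endothelial cells averaged 1.54% ± 0.83, 1.19% ± 0.23 and 2.72% ± 0.65 in SLC+LPS, LPS and control lungs. Conventional dendritic cells had 409 and 387 CPM in SLC+LPS lungs, 427 and 667 CPM in LPS lungs and 880.5 and 925 CPM in control lungs, with the control libraries again the highest. SLC+LPS against control was -1.42 ± 0.31 there (adjusted p = 0.0538) and LPS against control -0.96 ± 0.30 (adjusted p = 0.156). The part of the mix of cDC1 and cDC2 in this class, given above, was not tested. Mature dendritic cells had the highest mean, 677 ± 240 CPM, with 489 and 487 CPM in SLC+LPS lungs, 429.9 and 1015 CPM in LPS lungs and 845 and 796 CPM in control lungs, and no difference passed. They exceeded conventional dendritic cells in 4 of 6 libraries by 0.15 ± 0.30 (exact permutation p = 0.281, adjusted p = 0.362). Over the 10 classes tested, Cd86 was lower in SLC+LPS than in control lungs in 9, with a median of -0.84 on the log2 scale, and lower in LPS than in control lungs in 8, with a median of -0.27.

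**Figure D4:**
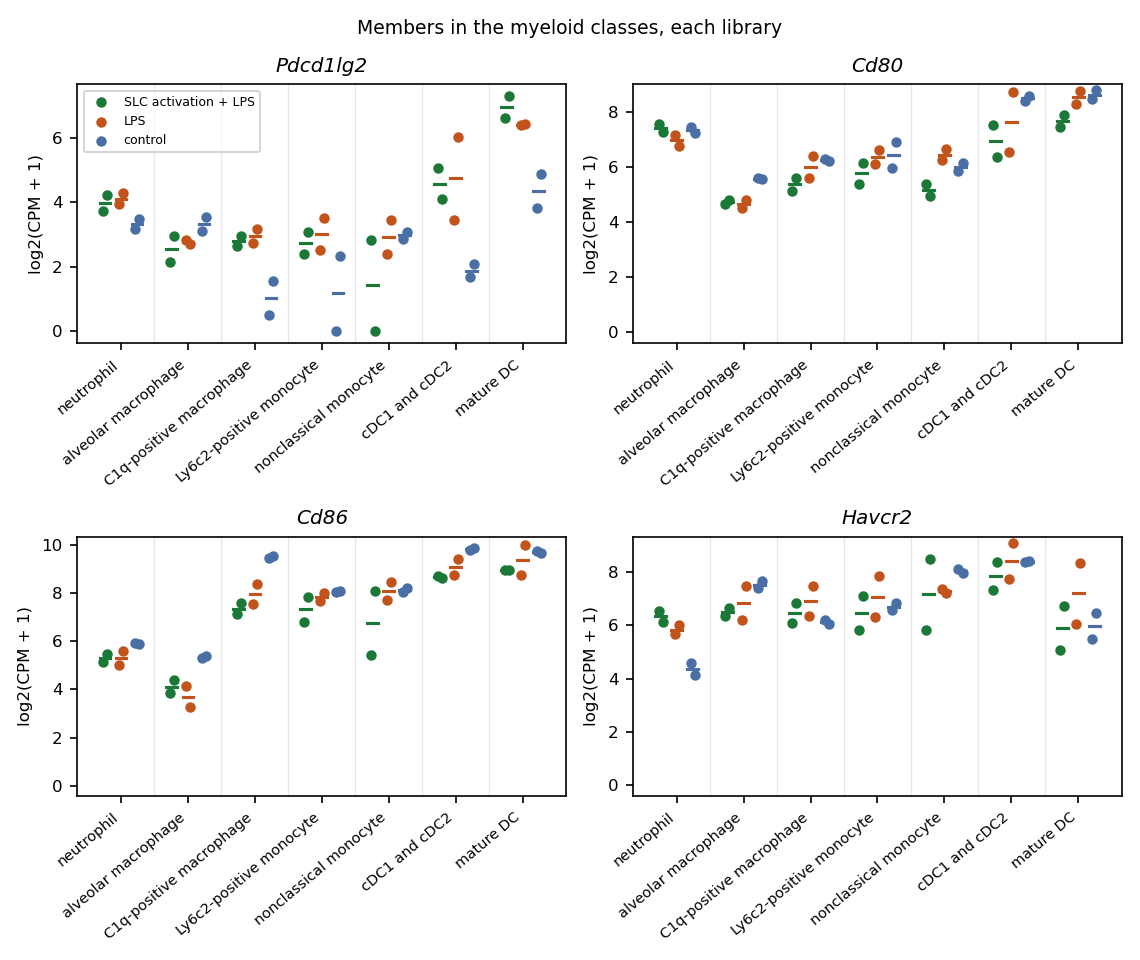
Levels of Pdcd1lg2, Cd80, Cd86 and Havcr2 in myeloid classes as log2(CPM + 1), with a point for each library and a bar at the mean of 2, for SLC+LPS, LPS and control lungs. Pdcd1lg2 in mature dendritic cells is lowest in the control libraries (13.3 and 28.8 CPM), and Cd86 in C1q-positive macrophages is highest there (692 and 732 CPM).

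Pdcd1, the PD-1 gene, was led by T cells among the 14 classes compared, with 54.5 and 68.7 CPM in SLC+LPS lungs, 34.3 and 236 CPM in LPS lungs and 21.7 and 67.0 CPM in control lungs. The second LPS library was by far the highest, and all groups overlapped. LPS against control was 1.69 ± 0.95 on the log2 scale (adjusted p = 0.737), SLC+LPS against LPS -1.13 ± 0.98 (adjusted p = 0.925) and SLC+LPS against control 0.56 ± 1.01 (adjusted p = 0.937). Within T cells the level was highest in gamma delta T cells, gated by the constant region gene Trdc, at 210.1 and 229.8 CPM in SLC+LPS lungs, 146 and 1051 CPM in LPS lungs and 98.5 and 439 CPM in control lungs. Over all libraries 128 of 391 gamma delta cells (32.7%) had a Pdcd1 UMI. CD8 T cells, with 40 of 627 (6.38%), and Foxp3-negative CD4 T cells, with 23 of 449 (5.12%), had fewer. Without the second LPS library, 13 of 488 CD8 T cells (2.66%) had one. Group 2 innate lymphoid cells, tissue cells that make type 2 cytokines, had 108 and 318 CPM in SLC+LPS lungs, 139 and 892 CPM in LPS lungs and 81.8 and 94.6 CPM in control lungs, again with the second LPS library highest, from 12 to 159 cells and 2 to 74 UMIs. That was above the T cell level in each of the 6 libraries, in a class with too few cells to be tested. The 7 markers of group 2 innate lymphoid cells were summed in the gamma delta gate as well. The sums were 2101 and 1658 CPM in SLC+LPS lungs, 1434 and 3301 CPM in LPS lungs and 1430 and 1840 CPM in control lungs. Il17rb and Il13 were at 0 in all libraries, and the part of this list in the Pdcd1 level was not tested. NK cells had a UMI in 13 of 1606 cells (0.809%), and endothelial cells in 0 of 2012, which allows a share of up to 0.149%. Expected free RNA was at most 0.6 CPM.

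Ctla4, the receptor that competes with CD28, was also led by T cells, and T cells stood above the next class in every library. The level was 215 and 189 CPM in SLC+LPS lungs, 197 and 318 CPM in LPS lungs and 79.3 and 153 CPM in control lungs. Every treated library exceeded both control libraries. LPS against control was 1.2 ± 0.35 on the log2 scale (adjusted p = 0.269) and SLC+LPS against control 0.83 ± 0.35 (adjusted p = 0.577), and neither was called. The share of T cells with a UMI averaged 24.2% ± 0.7 in SLC+LPS lungs, 28.7% ± 3.7 in LPS lungs and 13.7% ± 3.3 in control lungs (SD, n = 2 each). Thinned to 500 UMIs it was 9.20%, 10.9% and 4.94% in SLC+LPS, LPS and control lungs. Endothelial cells averaged 1.78% ± 0.49, 1.30% ± 0.39 and 1.94% ± 1.18 in the same order.

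Foxp3-positive CD4 T cells, the gate for regulatory T cells, had the highest Ctla4 of the T cell subsets, with 808 and 857 CPM in SLC+LPS lungs, 1771 and 1785 CPM in LPS lungs and 756 and 462 CPM in control lungs. The LPS libraries were the highest, and SLC+LPS libraries lay just above control. These values come from 8 to 17 cells and 14 to 71 UMIs per library and were not tested. The level exceeded that of Foxp3-negative CD4 T cells in 6 of 6 libraries, by 1.36 ± 0.60 (SD) on the log2(CPM + 1) scale, given without a test for the same reason. Foxp3-negative CD4 T cells had 352 and 484 CPM in SLC+LPS lungs, 497 and 648 CPM in LPS lungs and 162 and 293 CPM in control lungs, with no overlap among the groups. LPS against control was 1.30 ± 0.38 (adjusted p = 0.455), SLC+LPS against LPS -0.41 ± 0.39 (adjusted p = 0.90) and SLC+LPS against control 0.89 ± 0.39 (adjusted p = 0.70). Gamma delta T cells had 191 and 169.8 CPM in SLC+LPS lungs, 87.8 and 126 CPM in LPS lungs and 34.2 and 20.9 CPM in control lungs, from 3 to 17 UMIs. There SLC+LPS libraries were the highest, and SLC+LPS against control was 2.61 ± 0.61 (adjusted p = 0.0884).

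Tigit, a receptor for the poliovirus receptor family, was led by NK cells, with 89.4 and 62.4 CPM in SLC+LPS lungs, 60.6 and 130.1 CPM in LPS lungs and 44.7 and 50.1 CPM in control lungs. Every treated library exceeded both control libraries, and SLC+LPS and LPS libraries overlapped. LPS against control was 1.17 ± 0.40 on the log2 scale (adjusted p = 0.329) and SLC+LPS against control 0.69 ± 0.48 (adjusted p = 0.815). T cells had 35.4 and 27.8 CPM in SLC+LPS lungs, 37.4 and 41.1 CPM in LPS lungs and 15.9 and 24.4 CPM in control lungs, and were below NK cells in 6 of 6 libraries, by 1.2 ± 0.34 (SD, exact permutation p = 0.03125, adjusted p = 0.0703). A UMI was found in 256 of 1606 NK cells (15.9%), or 98 of 1065 (9.20%) without the second LPS library, in 148 of 2816 T cells (5.26%) and in 0 of 2012 endothelial cells, which allows up to 0.149%. Among T cells, Foxp3-positive CD4 T cells had Tigit in 13 of 75 cells (17.3%), CD8 T cells in 43 of 627 (6.86%) and gamma delta T cells in 7 of 391 (1.79%).

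Lag3, a receptor for MHC class II, was rare, with 33 and 35 UMIs in all cells of the SLC+LPS libraries, 41 and 39 in the LPS libraries and 90 and 85 in the control libraries. T cells held 16 of these UMIs over all libraries, in 14 of 2816 cells (0.497%), and NK cells 11 in 11 of 1606 cells (0.685%). Endothelial cells, which are not known for Lag3, had a UMI in 11 of 2012 cells (0.547%), 4 and 5 of these in the first SLC+LPS and the second LPS library. CD8 T cells had a UMI in 8 of 627 cells (1.28%). The level in NK cells was 8.94 and 3.67 CPM in SLC+LPS lungs, 6.99 and 2.37 CPM in LPS lungs and 1.35 and 2.39 CPM in control lungs, from 1 to 4 UMIs a library. Free RNA was expected to give 0.38 and 0.77 CPM in SLC+LPS lungs, 0.27 and 0.28 CPM in LPS lungs and 1.52 and 1.82 CPM in control lungs. NK cells of the treated libraries were thus above the expected free RNA, while their share with a UMI was close to that of endothelial cells, and no order of classes is read from so few UMIs. Conventional dendritic cells had the highest mean of the 14 classes, with 4.05 and 3.25 CPM in SLC+LPS lungs, 5.03 and 13.1 CPM in LPS lungs and 5.41 and 6.42 CPM in control lungs, from 1 to 12 UMIs. Foxp3-positive CD4 T cells had a UMI in 0 of 75 cells, which allows a share of up to 4%. No difference in Lag3 between groups could be detected in T or NK cells at this depth, since the filter on low counts removed it there. It was tested in C1q-positive and alveolar macrophages, at 0.38 to 4.36 CPM, and was not called in either, with the smallest adjusted p, 0.0844, in alveolar macrophages in LPS against control (-2.52 ± 0.66).

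**Figure D5:**
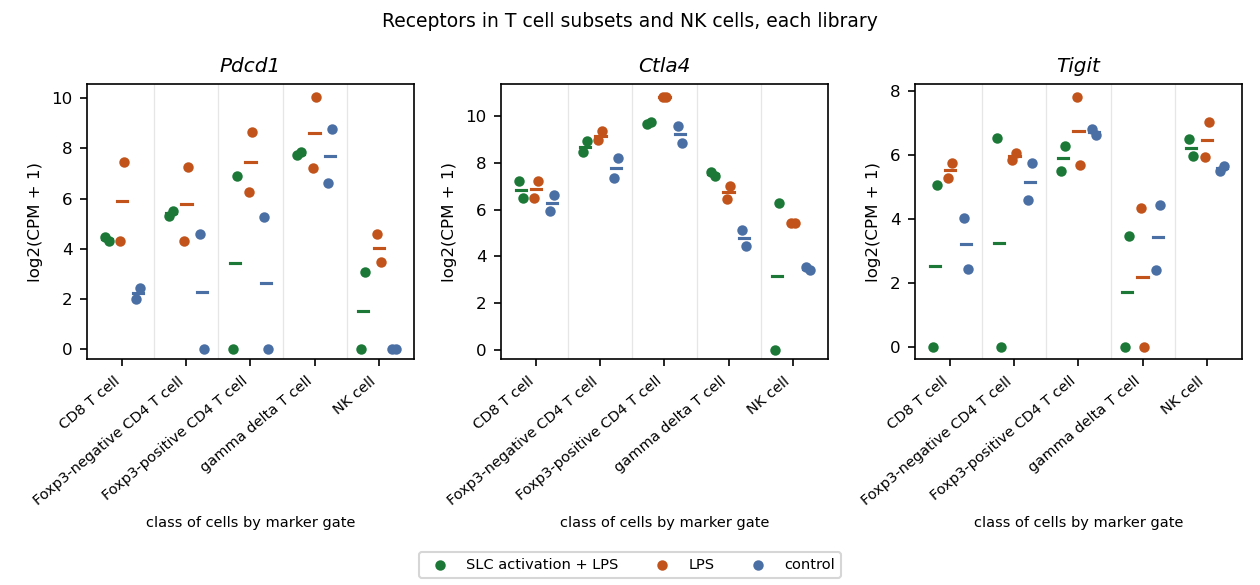
Levels of Pdcd1, Ctla4 and Tigit in T and NK cell classes as log2(CPM + 1), with a point for each library and a bar at the mean of 2, for SLC+LPS, LPS and control lungs. Ctla4 is highest in Foxp3-positive CD4 T cells (462 to 1785 CPM), Pdcd1 in gamma delta T cells with 1 LPS library at 1051 CPM, and Tigit lies between 44.7 and 130.1 CPM in NK cells.

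Havcr2, the TIM-3 gene, was a myeloid transcript in these lungs, led by conventional dendritic cells at 320.2 ± 132 CPM (SD over 6 libraries), nonclassical monocytes at 209 ± 108 CPM and alveolar macrophages at 134 ± 55.6 CPM, with overlap at each step. Conventional dendritic cells had 158 and 335 CPM in SLC+LPS lungs, 215 and 543 CPM in LPS lungs and 332 and 338 CPM in control lungs, and no difference passed the test. T cells had 10.9 and 33.6 CPM in SLC+LPS lungs, 11.4 and 20.2 CPM in LPS lungs and 6.46 and 7.24 CPM in control lungs, beside an expected 7.7 and 22.9 CPM, 12.1 and 5.1 CPM and 13 and 20.3 CPM of free RNA in the same libraries. In control T cells the level was thus below that of free RNA. The share of T cells with a UMI averaged 3.96% ± 3.21 in SLC+LPS lungs, 2.86% ± 0.20 in LPS lungs and 1.16% ± 0.04 in control lungs, against 0.957% ± 1.353, 1.70% ± 0.49 and 1.12% ± 0.20 in endothelial cells.

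In neutrophils Havcr2 rose in both treated groups. It stood at 91.7 and 69.4 CPM in SLC+LPS lungs, 49.6 and 63.2 CPM in LPS lungs and 22.8 and 16.6 CPM in control lungs, with no overlap among the groups. The change was 1.92 ± 0.39 on the log2 scale in SLC+LPS against control (adjusted p = 0.0492) and 1.85 ± 0.39 in LPS against control (adjusted p = 0.0438), where 1.17% and 2.16% of genes were called. SLC+LPS against LPS was 0.07 ± 0.36 and was not called (adjusted p = 0.977). Levels in CPM carry no TMM factors, and without these the median of all genes in neutrophils moved by 0.36 in that comparison. The share of neutrophils with a UMI averaged 9.13% ± 3.04 in SLC+LPS lungs, 8.37% ± 2.68 in LPS lungs and 2.31% ± 0.70 in control lungs, and thinned to 500 UMIs it was 3.82%, 2.98% and 0.775% in SLC+LPS, LPS and control lungs. The control level was within 10 CPM of the 13 and 20.3 CPM expected from free RNA. When free RNA was subtracted, the fitted values were larger, 3.17 in SLC+LPS and 2.93 in LPS against control, and were not called (adjusted p = 0.190 and 0.251). Nor were they called with stricter cells (1.72 and 1.64, adjusted p = 0.0759 and 0.0605) or with a stricter gate (1.87 and 1.81, adjusted p = 0.0607 and 0.0510). Without the second LPS library LPS against control was 1.42 (adjusted p = 0.0520), and without TMM factors 1.51 (adjusted p = 0.0612). Without either SLC+LPS library both calls ended as well (adjusted p of 0.0749 to 0.217). The 8 cDC1 markers in neutrophils summed to 122 and 142 CPM in SLC+LPS lungs, 123 and 60.5 CPM in LPS lungs and 149 and 169.8 CPM in control lungs, and the 10 alveolar macrophage markers to 1623 and 1115 CPM, 925 and 396 CPM and 1185 and 824 CPM in the same libraries, with none at 0 in either list. The 6 markers of Ly6c2-positive monocytes, a class with 55.2 to 232 CPM of Havcr2, summed to 547 and 1575 CPM in neutrophils of SLC+LPS lungs, 912 and 1545 CPM in LPS lungs and 429 and 319 CPM in control lungs, with none at 0. Of those 6 markers, 2 were higher in both LPS libraries than in both control libraries, as were 2 in both SLC+LPS libraries. By these sums each treated library was below both control libraries in cDC1 markers and above both in monocyte markers. The part of either list in the Havcr2 difference was not tested.

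The 77 genes of 4 related lists were all in the files. Among 29 further checkpoint ligands and receptors, 4 of 221 gene and class pairs rose (1.81%) and 3 fell (1.36%) in LPS against control lungs, and none rose and 3 fell in SLC+LPS against control lungs. Among 21 genes of interferon gamma signalling and other regulators of PD-L1, 4 of 256 pairs rose (1.56%) and none fell in LPS against control, and 4 rose and 3 fell in SLC+LPS against control. Of the 10 costimulatory genes of the TNF superfamily, 1 of 43 pairs rose in LPS against control, and 1 rose and 1 fell in SLC+LPS against control. Of 17 regulators of T cell activation and exhaustion, none of 155 pairs was called in LPS against control and 2 fell in SLC+LPS against control. In SLC+LPS against LPS lungs none of the 4 lists had a called pair in edgeR.

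In C1q-positive macrophages, where Cd274 was called, Hif1a, a transcription factor of the response to low oxygen, rose in both comparisons with control, by 1.24 ± 0.27 in SLC+LPS (adjusted p = 0.0369) and 1.25 ± 0.27 in LPS lungs (adjusted p = 0.0398). The genes of a TIM-3 ligand and an NKG2A ligand, Lgals9 and H2-T23, rose in LPS against control lungs by 0.95 ± 0.22 (adjusted p = 0.0480) and 2.09 ± 0.45 (adjusted p = 0.0405). H2-T23 was at 19.5 and 18.2 CPM in SLC+LPS lungs, 80.9 and 209 CPM in LPS lungs and 41.2 and 30.4 CPM in control lungs, so the SLC+LPS libraries were the lowest. Jak1, a kinase of interferon receptors, and Nfkb1, an NF-kappa B subunit, fell in SLC+LPS against control lungs by 1.09 (SE 0.25, adjusted p = 0.0451) and 1.00 (SE 0.23, adjusted p = 0.0460). Cd226, the gene of an activating receptor that shares ligands with TIGIT, fell in both comparisons with control, at 0.22 and 0.48 CPM in SLC+LPS lungs, 0.68 and 0 CPM in LPS lungs and 6.74 and 6.28 CPM in control lungs. Ikzf2, which encodes Helios, fell in SLC+LPS against control lungs, at 2.41 and 4.07 CPM against 11.9 and 19.8 CPM in control. In neutrophils, where Havcr2 was called, Timd4, a phagocytic receptor of the TIM family known from macrophages, fell in both treated groups, at 0.11 and 0.16 CPM in SLC+LPS lungs, 0.13 and 0.43 CPM in LPS lungs and 7.38 and 13.9 CPM in control lungs. Expected free RNA is not given for Cd226, Ikzf2 and Timd4, and its part in their low levels is not known.

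The genes most like each member were found by the Pearson correlation of log2(CPM + 1) over the means of the 14 classes, among 12086 genes with at least 10 CPM in some class. For Cd274 they were Riok3 (r = 0.944), Gm2396 (r = 0.922) and Nod2 (r = 0.905), and those for Pdcd1lg2 included Rhof (r = 0.893) and Zfand6 (r = 0.883). Cd80 was most like Ebi3 (r = 0.975), Aph1c (r = 0.952) and Gm47922 (r = 0.948), and Cd86 most like Gm49662 (r = 0.960), Cd83 (r = 0.947) and A530040E14Rik (r = 0.945). For Pdcd1 the list was 4930417O13Rik (r = 0.965), Trgc2 (r = 0.964) and Lcn4 (r = 0.959), and for Ctla4 it was Xlr4c (r = 0.921), Gm11973 (r = 0.920) and Slc35e2 (r = 0.913). Tigit was most like Gm33104 (r = 0.983), Ddx43 (r = 0.979) and Sla2 (r = 0.979), Havcr2 most like the paralogs Bcl2a1a (r = 0.958), Bcl2a1b (r = 0.947) and Bcl2a1d (r = 0.943), whose reads may be split among near-identical copies, and Lag3 most like Timeless (r = 0.832), Mrps26 (r = 0.803) and Zkscan17 (r = 0.793). The 14 class means share libraries, depth and free RNA, so these values describe likeness only.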

How the data were processed

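Each library was deposited by the authors as raw UMI counts per gene and cell barcode, per the files, aligned to GRCm39 (mm39) per the submitters' processing notes. Neither the counting tool nor its use of strand is named in the labels. The members and lists were chosen with earlier results of these data known. Libraries held 31589233 to 48641470 UMIs. Barcodes with at least 500 UMIs, 300 genes and under 20% mitochondrial UMIs were kept. Free RNA was taken from barcodes with 10 to 99 UMIs.

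Cells were gated from listed markers: a UMI of 1 of the first 2 markers, at least 3 markers detected, and an excess of at least 2 over the number expected at 20% free RNA. Markers that gated neutrophils were seen to carry were dropped from the monocyte list. Of the gamma delta markers listed, only Trdc was used. Doublets were scored by markers of another lineage, and up to 6% of cells per library with the highest scores were left out (288 to 760 cells). Doublets within a lineage are not seen by this score. The free RNA share of a library is the median over its gated classes.

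Summed counts were tested with edgeR 4.0.16 (TMM, filterByExpr, robust quasi-likelihood, group only, 6 libraries in 1 fit per class) in R 4.3.3, with DESeq2 1.42.0 as an alternative, and checked on simulated data. Class pairs were tested by exact sign-flip permutation over 6 libraries, adjusted over 9 pairs; the other 5 of the 14 listed had under 10 cells in some library. All 9 members are named, with up to 4 genes per list and comparison called in a class where a member was called, by smallest p, and the 3 genes most like each member; a few genes that meet these rules are not reported here. Percentages over cells of all libraries, and upper limits from 3 counts for a share of 0, cover counting error only. Samples that share a replicate number did not deviate together, so the fits are unpaired.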

Additional observations from a re-analysis of the deposited data

Results flagged for a closer look

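Cells that met no gate and free RNA enter none of the comparisons by class, and several members were higher there in treated than in control libraries. The ratios below are of the group means of CPM, with no test.

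In ungated cells Cd274 stood at 573 and 616 CPM in SLC+LPS lungs, 1103 and 1102 CPM in LPS lungs and 143 and 109.9 CPM in control lungs, which is 4.71 times the control mean in SLC+LPS and 8.73 times in LPS lungs. These cells held 36.7% and 32.3% of the Cd274 UMIs in SLC+LPS lungs, 39.7% and 17.3% in LPS lungs and 5.28% and 5.93% in control lungs, at a median depth of 989 to 1634 UMIs. In free RNA Cd274 was 2.61 times the control mean in SLC+LPS and 4.70 times in LPS lungs.

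Pdcd1lg2 in ungated cells was 3.45 times the control mean in SLC+LPS and 5.36 times in LPS lungs, and in free RNA 2.74 times and 2.91 times. Cd80 in ungated cells was 2.86 times the control mean in SLC+LPS and 3.25 times in LPS lungs. Havcr2 in ungated cells was 3.55 times the control mean in SLC+LPS and 4.51 times in LPS lungs. Pdcd1 in free RNA was 2.31 times the control mean in LPS lungs, at 2.50 and 4.95 CPM in LPS and 1.12 and 2.10 CPM in control lungs. Other members were lower in ungated cells of treated lungs. Cd86 stood there at 52.4 and 88.5 CPM in SLC+LPS lungs, 72.0 and 110.2 CPM in LPS lungs and 166 and 194 CPM in control lungs. Ctla4 stood at 14.2 and 26.7 CPM in SLC+LPS lungs, 17.7 and 22.4 CPM in LPS lungs and 43.3 and 58.4 CPM in control lungs, and Tigit at 0.52 and 3.42 CPM, 1.65 and 7.12 CPM and 8.48 and 11.3 CPM in the same libraries. With 2 libraries a group, single libraries that lie far out could not be tested.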

How the results depend on the processing

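The counts below stand without the share of all gene and class pairs called under the same setting. They show a dependence on the setting only. The number of member and class pairs called depended on the setting. In LPS against control it was 3, and 10 with DESeq2, 1 with expected free RNA subtracted, 6 with no cells left out as doublets, 20 with no filter on low counts and 5 with a wider gate, the last added after seeing the data. It ran from 0 to 17 with 1 library left out, the 17 without the first and 11 without the second LPS library, 1 and 0 without the first and second control library. In SLC+LPS against LPS it was 0, and 1 with no filter on low counts (Cd274 in endothelial cells), and 0 to 4 with 1 library left out, the 4 without the first LPS library. In SLC+LPS against control it was 3, and 1 with expected free RNA subtracted and 9 with no filter, and 0 to 13 with 1 library left out, the 13 without either LPS library. Without TMM factors LPS against control had 2 pairs higher and 1 lower, against 3 higher with them, and 1 pair was shared. A group left with 1 library is assumed to vary like the others. The fit on subtracted counts covered 53 pairs in 12 classes. The cause was not tested. With the replicate number as a block, the count was 3 in LPS against control, with 1 shared with the unpaired fit, 0 in SLC+LPS against LPS and 1 in SLC+LPS against control. Same-numbered samples over all cells correlated at -0.19, -0.12 and 0.07 (SLC+LPS with LPS, SLC+LPS with control, LPS with control), so the numbers do not pair them. Cd274 in C1q-positive macrophages in LPS against control kept its call under all 9 settings that kept all libraries, from 2.14 to 2.74 on the log2 scale. Of the 9 class pairs tested none was called under any setting. With 6 libraries a pair can be called only if most of the 9 reach the smallest p, and 5 libraries cannot give a p below 0.0625. Lag3 in NK cells minus T cells turned to -0.65 with stricter cells, against 0.60, from few UMIs. Without TMM factors the median of all genes moved by -0.28 to 0.36 on the log2 scale by class, and by -0.39 in the sum over all cells against control. Shares over all libraries with each library left out in turn were added after seeing the data.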
